A study of Mus musculus with 33 samples.

Results

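Transcripts of 8 genes for m6A readers other than YTHDF2 were followed in mouse hippocampal neural stem cells: Ythdf1, Ythdf3, Ythdc1, Ythdc2, Igf2bp1, Igf2bp2, Igf2bp3 and Hnrnpa2b1. They were taken by symbol, as 8 of the 26621 gene rows in the deposited count tables. They were chosen for their function, though with earlier results of these data known. The question behind the choice was whether other readers change when Ythdf2 is targeted. The cells came from mice at postnatal 0.5 day and were cultured with bFGF and EGF. The RNA-seq libraries carry the genotype labels Nestin-WT and Nestin-cKO, the latter for a conditional knockout of Ythdf2, and were collected after 0, 2 or 4 h in actinomycin D at 5 µM, an inhibitor of RNA synthesis, with 3 libraries for each genotype and time (18 in all). Nestin is a gene of neural progenitors, and the construct behind the label was not given in the sources used here. WT cells alone were used for 6 libraries of RNA pulled down with an m6A antibody or kept as input, and for 9 libraries of RNA pulled down with a YTHDF2 antibody, with IgG, or kept as input, again 3 of each. No source says that libraries with different replicate numbers came from separate animals, so the tests measure the spread between these libraries.

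N6-methyladenosine, or m6A, is a methyl mark placed on mRNA by a methyltransferase complex around METTL3 and read by proteins that bind the modified base. The YTH proteins hold the methylated base in an aromatic pocket: YTHDF1, YTHDF2 and YTHDF3 are cytoplasmic and closely alike, YTHDC1 is nuclear and acts in splicing and export, and YTHDC2 is a helicase with a role in meiosis. The IGF2BP proteins are RNA-binding proteins of the embryo and of tumours that have been linked to the stability of methylated mRNA, and HNRNPA2B1 is an abundant nuclear ribonucleoprotein whose binding can depend on m6A through RNA structure. YTHDF2 is best known for bringing methylated mRNA to the CCR4-NOT deadenylase, and the 3 YTHDF proteins have been reported to share functions.

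The genes lie apart in the genome (GRCm38.p6, RefSeq). Ythdf1 is on chromosome 2 at chr2:180904377-180920936, Ythdf3 on chromosome 3 at chr3:16183148-16217037 and Ythdc1 on chromosome 5 at chr5:86803980-86836659. Igf2bp1 is on chromosome 11 at chr11:95957163-96005944, Igf2bp2 on chromosome 16 at chr16:22059009-22163299 and Igf2bp3 on chromosome 6 at chr6:49085218-49215469. Hnrnpa2b1 is on chromosome 6 as well, at chr6:51460434-51470048. Ythdf2 itself is on chromosome 4 at chr4:132184916-132212256.

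Promoter windows are shown for Ythdf1 and Ythdc1, whose transcripts fell under actinomycin D in both genotypes, as described below. Those of Ythdf3 and Ythdc2 also fell, and their windows are not shown. A link between promoter windows and the loss of RNA was not tested. Each window shown is the 250 bases before the gene's start in a RefSeq promoter table on GRCm38.p6, read 5′ to 3′ on the gene's strand. They lie at chr2:180920937-180921186 (minus strand) and chr5:86804016-86804265 (plus strand). For Ythdc1 the start in that table lies inside the gene interval given above, so its window lies within that interval and not upstream of it. The capitals mark exact matches on either strand to CCAAT (the CCAAT box) and GGGCGG (the GC box).
Ythdf1: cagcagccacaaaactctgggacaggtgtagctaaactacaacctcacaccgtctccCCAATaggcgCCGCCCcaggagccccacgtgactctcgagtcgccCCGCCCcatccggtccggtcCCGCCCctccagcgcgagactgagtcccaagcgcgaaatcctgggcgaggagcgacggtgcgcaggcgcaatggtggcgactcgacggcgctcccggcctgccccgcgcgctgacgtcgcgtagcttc
Ythdc1: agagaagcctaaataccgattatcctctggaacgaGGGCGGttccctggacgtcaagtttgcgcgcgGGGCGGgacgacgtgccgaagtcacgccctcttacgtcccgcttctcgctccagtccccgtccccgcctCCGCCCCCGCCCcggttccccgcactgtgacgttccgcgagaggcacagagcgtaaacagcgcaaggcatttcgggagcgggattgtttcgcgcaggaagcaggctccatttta
The Ythdf1 window held 1 CCAAT box and 3 GC boxes, and the Ythdc1 window held 4 GC boxes and no CCAAT box. Over the 32851 RefSeq promoter windows of the same length, 33.8% held a CCAAT match and 32.7% a GC box match. Neither window held TATAAA, the TATA box, which 12.4% of all windows held, and no match overlapped another. The windows were rich in CpG, with 30 CG pairs in each against a median of 6 over all windows.

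The count totals were 10257329 to 21353383 per RNA-seq library, 12892222 to 28334300 in the m6A set and 8419106 to 23097887 in the YTHDF2 set. The targeted gene went against its label. Ythdf2 was read at 219, 253 and 258 CPM (counts scaled to the normalized size of their library) in the WT libraries at 0 h and at 3117, 1035 and 736 in the libraries labelled cKO, which places every library labelled cKO above every WT library (log2 difference 2.74, SE 0.37, adjusted p = 2.7e-04). Counts per gene do not show which exons were read, so the rise does not tell whether intact or altered mRNA was counted. Groups are therefore called by their labels below, and each genotype direction refers to the label. Replicate 1 of the cKO group at 0 h stood apart from its 2 companions for Ythdf2 and for several readers. Marker genes of other cells also differed between the labels at 0 h, where 7.71% of all tested genes were called higher and 9.89% lower. The summed level of 10 fibroblast and meningeal markers was 40.2 to 86.6 CPM in the cKO libraries and 11.1 to 14.3 CPM in the WT libraries, with 7 of 9 tested markers called higher. Over 8 neuronal markers the sum was 56.2 to 75.5 CPM in cKO and 195 to 250 CPM in WT, and over 10 neural stem cell markers it was 7262 to 11120 CPM in cKO and 12700 to 14600 CPM in WT. Of the neuronal markers 4 were called lower and 1, Stmn2, higher (1.22, adjusted p = 0.0318). Of the neural stem cell markers 4 were called lower and 1, Vim, higher (1.445, adjusted p = 0.02), so the sums do not hold for each marker. Of 9 oligodendrocyte lineage markers 5 were called lower and 1, Olig1, higher (0.94, adjusted p = 0.0316). Their median log2 difference was -2.11, with sums of 245 to 574 CPM in cKO and 518 to 646 CPM in WT. Of 6 mature astrocyte markers 3 were called lower (383 to 451 CPM in cKO and 773 to 1004 CPM in WT). Most microglial markers (4 or 5 of 6) were at 0 in each of the 0 h libraries. The part of these cell mixtures in the reader differences was not tested, and in bulk RNA fewer cells of a type cannot be told apart from less RNA per cell.

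Levels between genes were compared per length, as the deposited TPM, a unit scaled for transcript length and library size. In the WT cells at 0 h, Hnrnpa2b1 was the highest of the readers at 644.5 ± 35.3 TPM (SD, n = 3), above Ythdf2 at 120.5 ± 8.1 TPM. Ythdc1 at 36.2 ± 3.1 TPM and Ythdf3 at 33.2 ± 3.0 TPM followed, and their libraries overlapped. Ythdc2 at 13.8 ± 0.47 TPM, Igf2bp3 at 12.7 ± 6.5 TPM and Ythdf1 at 11.1 ± 1.2 TPM formed the next set, in which the Igf2bp3 libraries spanned those of both others. Igf2bp2 was low at 0.87 ± 0.47 TPM. Igf2bp1 was close to nothing, with 0, 1 and 6 counts in the 3 libraries. Of the summed TPM of the 3 YTHDF genes, Ythdf2 made up 73.1% ± 2.5 (SD, n = 3) in WT and 93.2% ± 1.9 in the libraries labelled cKO. The summed TPM of Ythdf1 and Ythdf3 was 44.3 ± 4.1 in WT and 46.9 ± 20.7 in cKO, and the SD of the cKO group was wider than the difference.

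**Figure D1:**
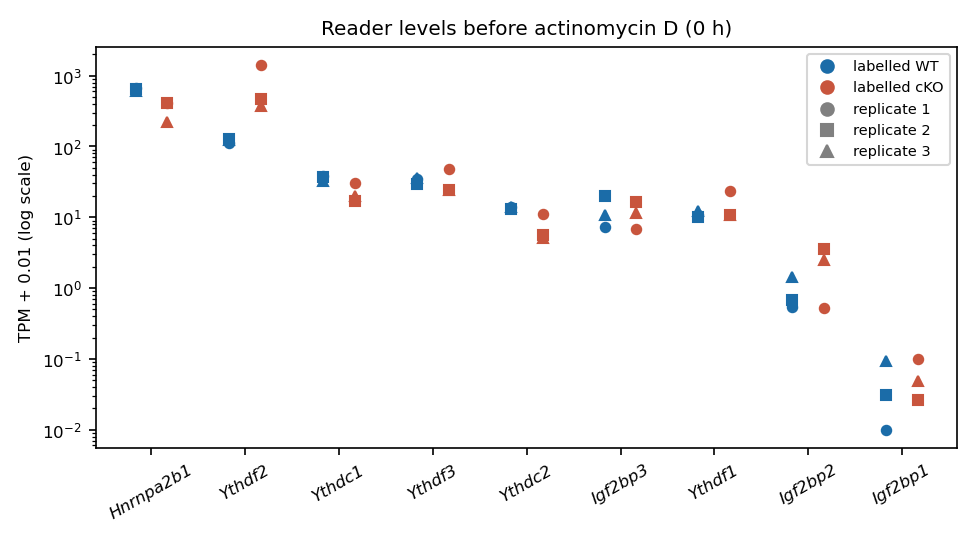
Level of the 8 readers and Ythdf2 at 0 h in TPM plus 0.01 on a log scale, one point per library, blue for WT and red for the label cKO, with the marker shape giving the replicate number. Hnrnpa2b1 is the highest and Igf2bp1 the lowest of the 8 readers in both genotypes, and Ythdf2 is the only gene with all cKO points clearly above the WT points.

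The readers were first compared between the genotypes before actinomycin D. None of the 8 passed edgeR's quasi-likelihood test at 0 h, against 17.6% of all 14029 tested genes called in either direction. At an unadjusted p below 0.05 there were 2, DESeq2 called 1 (Ythdc2) and limma on log2(TPM + 1) called 2 (Ythdc1 and Ythdc2), all of them lower. Over all genes DESeq2 called 24.3% and limma 24.6% in either direction. The log2 differences of the readers other than Igf2bp1 ran from -0.82 to 1.38. The direction of calls over all genes depended on the scaling, with 1082 higher and 1387 lower as reported and 540 higher and 2267 lower when scaled to ribosomal protein genes. The other 2 YTHDF genes gave no clear difference. Ythdf1, which has been linked to translation of methylated mRNA, was at 16.4, 15.8 and 20.0 CPM in WT and at 40.4, 18.4 and 16.4 CPM in cKO. Replicate 1 of the cKO group was high and the other 2 lay within the WT range. The log2 difference was 0.53 (SE 0.31, adjusted p = 0.235), and it was 0.00 without that library. Ythdf3 was at 87.8, 77.8 and 96.0 CPM in WT and at 137, 69.5 and 62.3 CPM in cKO. The same library was the highest of the 6 and the other 2 were the lowest, with a difference of 0.04 (SE 0.25, adjusted p = 0.928).

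The YTHDC genes, with Ythdc2 on chromosome 18, had lower means in cKO that did not pass the test. Ythdc1 stood at 56.1, 56.0 and 50.3 CPM in WT and at 50.8, 27.8 and 29.3 CPM in cKO (log2 difference -0.59, SE 0.24, adjusted p = 0.0951). Ythdc2 stood at 42.8, 41.0 and 44.7 CPM in WT and at 38.3, 19.1 and 15.3 CPM in cKO (log2 difference -0.82, SE 0.30, adjusted p = 0.0628). For Ythdc2 all cKO libraries lay below all WT libraries, whereas for Ythdc1 replicate 1 of cKO fell inside the WT range. Without that library both passed the test, Ythdc1 at -0.92 (adjusted p = 0.0131) and Ythdc2 at -1.32 (adjusted p = 0.00472). Other methods called them with all libraries kept: limma called both (adjusted p = 0.0383 for Ythdc1 and 0.0155 for Ythdc2), and DESeq2 called Ythdc2 (adjusted p = 0.0494), as did the fit with the replicate number as a block (adjusted p = 0.0248). The limma, DESeq2 and block fits called 24.6%, 24.3% and 23.9% of all genes in either direction. Scaled to ribosomal protein genes, Ythdc1, Ythdc2 and Hnrnpa2b1 were called lower at -0.79, -1.04 and -1.01 (adjusted p = 0.0446, 0.0175 and 0.0443).

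The remaining readers had wide spreads within the cKO group. Hnrnpa2b1 was near 1300 CPM in all WT libraries (1324, 1319 and 1258) and at 909, 913 and 441 CPM in cKO. The groups did not overlap, yet the difference of -0.79 (SE 0.38) did not pass the test (adjusted p = 0.155). Igf2bp2 was at 1.01, 1.26 and 2.79 CPM in WT and at 1.08, 7.51 and 4.70 CPM in cKO (difference 1.38, SE 0.68, adjusted p = 0.158). Igf2bp3 was at 15.0, 42.5 and 24.1 CPM in WT and at 16.3, 38.7 and 24.1 CPM in cKO, nearly the same 3 values in each genotype (difference -0.04, SE 0.47, adjusted p = 0.957). Igf2bp1 had 5, 1 and 2 counts in cKO, too few for a direction.

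**Figure D2:**
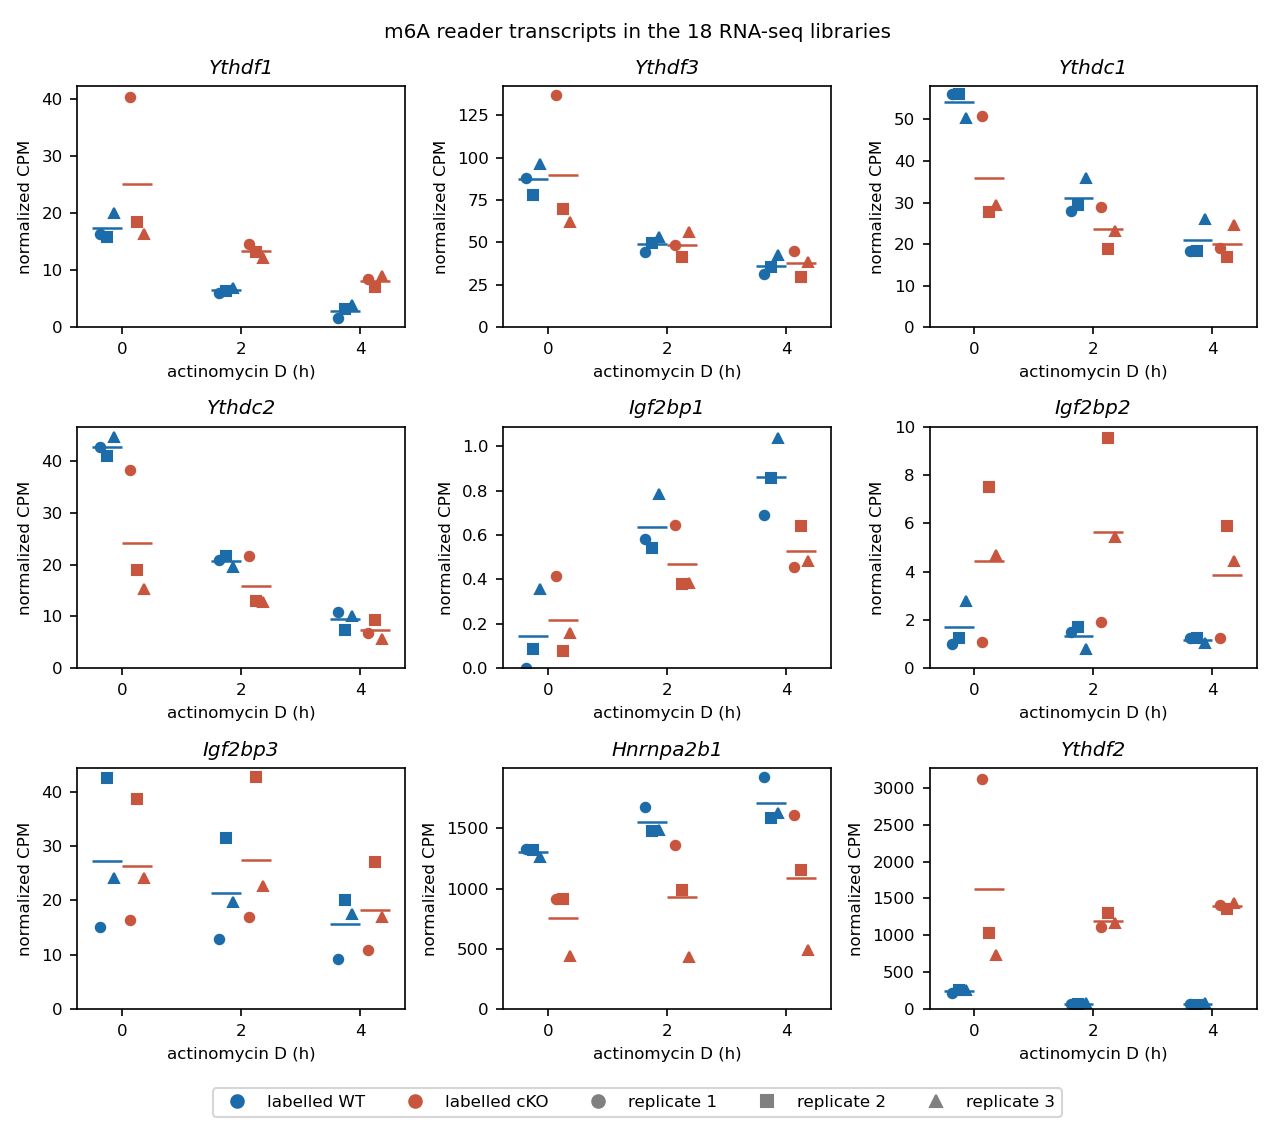
Normalized CPM of each reader and of Ythdf2 against hours in actinomycin D, one panel per gene with its own axis from 0, blue for WT and red for the label cKO, with marker shapes for the replicate number and lines for the group means. Ythdf1 in cKO lies above WT at 2 and 4 h with no overlap, and replicate 1 of cKO at 0 h is high for Ythdf1, Ythdf3, Ythdc1, Ythdc2 and Ythdf2.

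After 2 h of actinomycin D, 2 of the 8 readers were called higher in cKO, against 17.1% of all genes called in either direction. Ythdf1 was at 6.01, 6.42 and 6.91 CPM in WT and at 14.7, 13.2 and 12.2 CPM in cKO. The cKO libraries were all above the WT libraries, and the log2 difference was 1.05 (SE 0.32, adjusted p = 0.0324). Igf2bp2 was at 1.52, 1.70 and 0.785 CPM in WT and at 1.93, 9.56 and 5.42 CPM in cKO. These groups did not overlap either, though replicate 1 of cKO was close to WT, and the difference was 2.08 (SE 0.69, adjusted p = 0.0457). Both calls were close to the threshold: leaving out any 1 library except replicate 1 of cKO moved Ythdf1 to an adjusted p of 0.0671 to 0.0997 and Igf2bp2 to one of 0.091 to 0.201. Scaling to ribosomal protein genes also ended both calls (adjusted p = 0.056 and 0.0633). Over all genes 1195 were higher and 1198 lower at 2 h, against 589 and 1917 with that scaling and 1927 and 924 with library size scaling.

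At 4 h the Ythdf1 difference was the one reader call, against 20.2% of all genes. Those were 1549 higher and 1278 lower, which became 740 and 1893 with ribosomal scaling and 2499 and 954 with library size scaling. Ythdf1 was at 1.63, 3.15 and 3.88 CPM in WT and at 8.47, 7.04 and 8.89 CPM in cKO, again with every cKO library above every WT library. The log2 difference was 1.50 (SE 0.33, adjusted p = 0.00621), or 2.82-fold, and it passed the test without any 1 library (adjusted p 0.00935 to 0.035). At 4 h the counts behind these values were 26 to 60 in WT and 110 to 148 in cKO. Igf2bp2 was at 1.25, 1.24 and 1.03 CPM in WT and at 1.26, 5.89 and 4.45 CPM in cKO, with a difference of 1.71 (SE 0.70, adjusted p = 0.0896). Without replicate 1 of cKO at 4 h, Igf2bp2 was called higher (2.09, adjusted p = 0.0335) and Hnrnpa2b1 lower (-1.11, adjusted p = 0.0467).

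The other readers kept small or uncertain differences at the later times. Ythdf3 differed by -0.01 at 2 h and by 0.05 at 4 h (SE 0.25 each time). Ythdc1 differed by -0.40 and -0.06 (SE 0.24 and 0.25), and Ythdc2 by -0.38 and -0.39 (SE 0.30 and 0.31). Hnrnpa2b1 differed by -0.74 and -0.66 (SE 0.38 each), with replicate 3 of cKO the lowest library at every time. The sum of Ythdf1 and Ythdf3 at 4 h was 11.0 ± 2.0 TPM in WT and 14.1 ± 2.7 TPM in cKO (SD, n = 3).

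**Figure D3:**
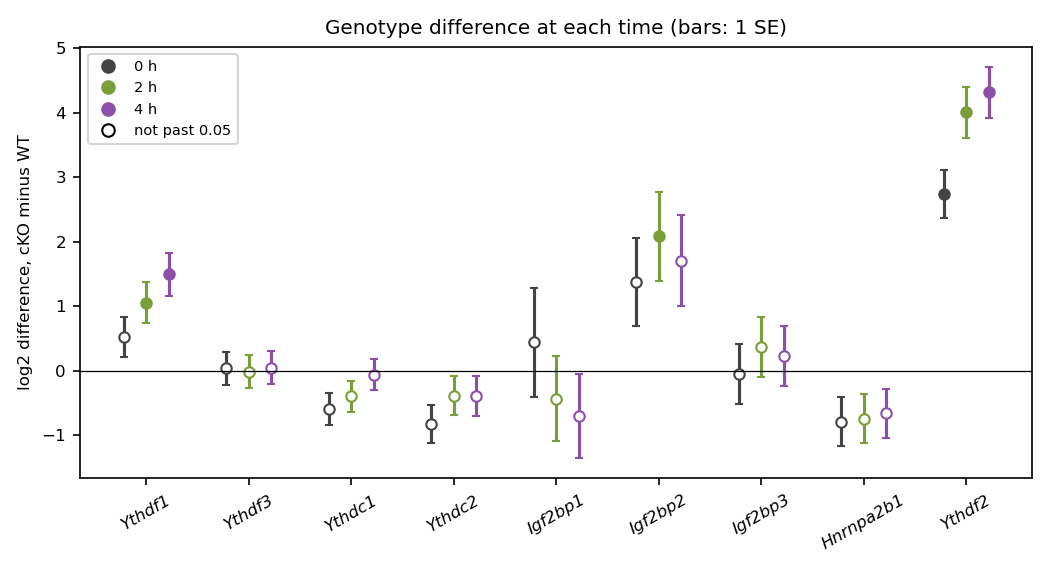
Log2 difference between the label cKO and WT at 0, 2 and 4 h (black, green, purple) for the 8 readers and Ythdf2, with bars of 1 SE and open points where the adjusted p did not pass 0.05. Among the readers only Ythdf1 at 2 and 4 h and Igf2bp2 at 2 h have filled points, and Ythdf2 has filled points at 2.74, 4.00 and 4.31.

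Under actinomycin D a transcript that is lost faster than the average falls in normalized CPM, since the values are relative to all mRNA left. In WT, 4 of the 8 readers fell between 0 and 4 h, against 24.2% of all genes called lower, and they were the 4 YTH genes. Ythdf1 fell most, to 16.6% of its mean at 0 h, with changes of -3.33, -2.32 and -2.37 on the log2 scale in replicates 1 to 3 (fitted -2.59, SE 0.34, adjusted p = 1.42e-05). Ythdc2 fell to 22.2% (fitted -2.17, SE 0.31, adjusted p = 3.65e-05). Ythdc1 fell to 38.7% (fitted -1.37, adjusted p = 0.000327) and Ythdf3 to 41.7% (fitted -1.26, adjusted p = 0.000871). Every same-numbered pair of WT libraries moved down for these 4 genes. Ythdf2 fell in WT as well, by 1.78 (adjusted p = 0.000841).

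Changes of the IGF2BP genes and Hnrnpa2b1 in WT depended more on the fit. Hnrnpa2b1 was at 1925, 1582 and 1629 CPM at 4 h, above all 3 libraries of 0 h, with a fitted change of 0.40 (SE 0.38, adjusted p = 0.434). Igf2bp3 was at 9.23, 20.1 and 17.5 CPM at 4 h (fitted -0.80, SE 0.47, adjusted p = 0.189). It was lower in all 3 numbered pairs (-0.70, -1.08 and -0.47), and it was called lower when the 6 WT libraries were fitted alone (-0.82, adjusted p = 0.0475), by limma (-1.10, adjusted p = 0.0471) and with ribosomal scaling (-1.55, adjusted p = 0.0115). With the replicate number as a block, which takes out the stable differences between replicates, Igf2bp3 was called lower (-0.75, adjusted p = 0.000538) and Hnrnpa2b1 higher (0.39, adjusted p = 0.0108), in a fit that called 52.9% of all genes in either direction. Scaled to ribosomal protein genes, which moved the median of all genes by about -0.72, Hnrnpa2b1 changed sign (-0.33, adjusted p = 0.482). Igf2bp2 changed by -0.53 (SE 0.71, adjusted p = 0.583). Igf2bp1 was called higher, against 15.6% of all genes, from 0, 1 and 6 counts at 0 h to 11, 9 and 16 at 4 h (fitted 2.41, SE 0.75, adjusted p = 0.0159). That call rests on a handful of reads and was lost without replicate 1 or replicate 2 of WT at 0 h (adjusted p = 0.0638 and 0.0643), on the log2(TPM + 1) scale and with ribosomal scaling. The share of all genes called higher depended on the scaling too: it was 4.98% with library size scaling, 2.44% with limma and 0.321% with ribosomal scaling, where 4412, 5179 and 5969 genes were lower (3402 as reported).

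In the libraries labelled cKO the same 4 YTH genes were called lower after 4 h, against 18% of all genes. Over all genes 1694 were higher and 2528 lower, which became 515 and 3169 with library size scaling and 32 and 5457 with ribosomal scaling. Ythdf1 fell by 1.62 (SE 0.32, adjusted p = 0.000991), Ythdc2 by 1.73 (SE 0.31, adjusted p = 0.000442), Ythdf3 by 1.25 (SE 0.26, adjusted p = 0.00142) and Ythdc1 by 0.84 (SE 0.25, adjusted p = 0.016). All 3 same-numbered pairs went down for each of these genes. Replicate 1 gave the steepest change each time, from its high level at 0 h: for Ythdf1 the changes were -2.25, -1.39 and -0.88 in replicates 1 to 3, and for Ythdc1 they were -1.42, -0.72 and -0.26. Without replicate 1 at 0 h the Ythdc1 call was lost (-0.50, adjusted p = 0.107), as it was without replicate 2 at 4 h (-0.74, adjusted p = 0.0679). With the 6 cKO libraries fitted alone, the calls of Ythdf3 (adjusted p = 0.0527) and Ythdc1 (adjusted p = 0.134) were lost. Igf2bp3 was called lower with ribosomal scaling (-1.26, adjusted p = 0.0389). In the block fit it was called lower as well (-0.53, adjusted p = 0.0072) and Hnrnpa2b1 higher (0.43, adjusted p = 0.00795). That fit called 44.2% of all genes in either direction. The 0 h libraries serve both as the start of these series and as one side of the genotype comparison, so the results share samples.

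**Figure D4:**
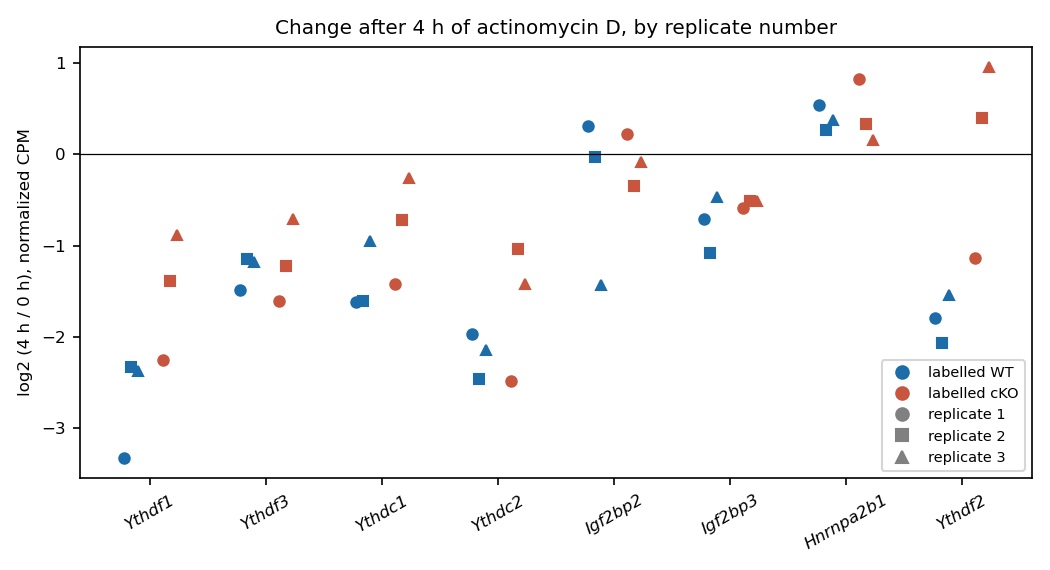
Log2 ratio of normalized CPM at 4 h over 0 h for each same-numbered pair of libraries, blue for WT and red for the label cKO, marker shape for the replicate number. The 4 YTH readers and Igf2bp3 are below 0 in all 6 pairs, Hnrnpa2b1 is above 0 in all 6, and Ythdf2 in cKO splits into 1 pair below and 2 above; Igf2bp1 is left out because a library held 0 counts.

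The difference between the genotypes in the change per hour was tested directly. None of the 8 readers passed, and 1 of 14029 genes did (0.00713%). DESeq2 and limma called 0 readers as well, and 1 (Ythdf1) had an unadjusted p below 0.05. The slope of Ythdf1 was less steep in cKO by 0.25 log2 units per hour (SE 0.11, unadjusted p = 0.0334 in the edgeR fit, adjusted p = 0.542), and the block fit gave 0.28 (adjusted p = 0.151). The higher Ythdf1 level at 2 and 4 h was therefore not accompanied by a slope difference past the threshold. Slope differences of the 7 others lay between -0.26 for Igf2bp1 and 0.13 for Ythdc1 log2 units per hour, with adjusted p of 0.736 or more. Ythdf2 had a slope difference of 0.39 (adjusted p = 0.361), which was 0.61 and passed (adjusted p = 0.0316) without replicate 1 of cKO at 0 h.

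Some readers differed between replicates in a stable way. Igf2bp3 was highest in replicate 2 and lowest in replicate 1 in all 6 genotype and time groups, by 2.18-fold to 2.82-fold. Within cKO, Igf2bp2 was lowest in replicate 1 and highest in replicate 2 at each time, by 4.68-fold to 6.98-fold. Hnrnpa2b1 was lowest in replicate 3 of cKO at each time, by 2.07-fold to 3.28-fold, while its WT libraries differed by at most 1.22-fold. These differences enter the SE of the genotype comparison, which is larger for these 3 genes than for Ythdf1, Ythdf3, Ythdc1 and Ythdc2.

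The m6A pull-down from WT cells shows whether the reader transcripts themselves were enriched with the antibody. Of 7 tested readers none was called, against 20.3% of all 14167 genes in either direction. At an unadjusted p below 0.05 there were 2 (Ythdf3 and Ythdc2), and DESeq2 called 1, Ythdc2, lower. On the log2(TPM + 1) scale limma called 3 higher, Ythdf3 at 0.66, Ythdc1 at 0.55 and Hnrnpa2b1 at 0.51 (adjusted p = 0.00048, 0.0028 and 0.000505). Over all genes 858 were higher and 2023 lower, against 3627 and 1293 with library size scaling and 7236 and 770 with limma. The antibody set scales each library to all mRNA, so 0 is the average transcript and not an unmethylated one. Ythdf3 was at 77.1, 76.6 and 70.3 CPM in the input and at 89.7, 80.2 and 87.1 CPM in the pull-down, with no overlap (log2 difference 0.20, SE 0.08, adjusted p = 0.107). Same-numbered libraries deviated together here, and with the number as a block Ythdf3 was called higher (0.20, adjusted p = 0.0205), in a fit that called 37.9% of all genes. Ythdc2 was at 11.4, 12.1 and 8.28 CPM in the input and at 7.21, 7.03 and 7.88 CPM in the pull-down, all below (-0.52, SE 0.17, adjusted p = 0.0643), and the block fit called it lower (-0.51, adjusted p = 0.0138). For comparison, Ythdf2 was called higher at 0.27 (adjusted p = 0.0213), a call lost in 4 of 6 fits that left out 1 library (adjusted p 0.0582 to 0.0863).

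The other readers were near the average in the m6A pull-down. Hnrnpa2b1 differed by 0.03 (SE 0.06), the narrowest estimate among the readers, and Igf2bp3 by 0.02 (SE 0.19). Ythdc1 differed by 0.12 (SE 0.11), Ythdf1 by 0.07 (SE 0.24) and Igf2bp2 by -0.17 (SE 0.19). Ythdf1 moved up in 2 numbered pairs (0.67 and 0.15) and down in 1 (-0.42). Scaled to library size alone, which moved the all-gene median to 0.22, Ythdf3, Ythdc1 and Hnrnpa2b1 were called higher, at 0.41, 0.33 and 0.24 (adjusted p = 0.00481, 0.0435 and 0.00971). Igf2bp1 had at most 1 count in any m6A library and was not tested.

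The YTHDF2 pull-down was compared with its input and with IgG. The sample titles and the column names disagree on which libraries are YTHDF2 and which are input. The column names and sample descriptions were followed. The exchanged naming turns every direction of YTHDF2 against input and also changes the comparisons with IgG. Mitochondrial genes held 2.60 to 3.40% of counts in the libraries that the columns name input and 0.690 to 0.823% in those named YTHDF2. They held 0.823 to 1.11% with IgG and 2.76 to 3.10% in the m6A inputs. Which naming is right was not tested. Ythdf2 RNA itself was 1.34 higher than in the input (adjusted p = 3.3e-05) and 1.60 higher than in IgG (adjusted p = 1.67e-05) on the log2 scale. Against input, 5 of 7 tested readers were called higher, where 30.7% of all 14255 genes were, and 1 was called lower, where 17.5% of all genes were. Hnrnpa2b1 was at 6826, 4797 and 7486 CPM in the pull-down and at 3116, 2061 and 2729 CPM in the input (1.27, SE 0.23, adjusted p = 0.00085). Ythdc2 was at 16.8, 15.9 and 19.9 CPM and at 9.48, 7.04 and 5.78 CPM (1.23, SE 0.22, adjusted p = 0.000769). Neither gene overlapped between the groups, in a comparison that called 48.1% of all genes in either direction. The median of all genes was 0.23 above input under this scaling, and the 4373 higher and 2490 lower genes became 3545 and 3211 with median-ratio scaling.

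A like excess was measured with IgG, the control antibody. Against input, IgG was called higher for 3 of the 7 readers, where 20.2% of all genes were. Hnrnpa2b1 rose by 1.58 (SE 0.23, adjusted p = 0.000358), Ythdc2 by 1.42 (SE 0.22, adjusted p = 0.000502) and Ythdc1 by 0.84 (SE 0.21, adjusted p = 0.00848). The YTHDF2 pull-down had lower means than IgG for all 3 of these genes, by -0.31, -0.19 and -0.18 (SE 0.22, 0.21 and 0.21, adjusted p = 0.418, 0.585 and 0.606). The comparisons with input share the input libraries. Under the exchanged naming the same 3 genes were called lower with YTHDF2 than with IgG, and no reader was called higher with IgG than in the input. Library size scaling gave 3396 higher and 1842 lower genes for IgG over input, where 2873 and 2422 were reported.

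With the libraries named by the columns, Ythdf1 and Ythdf3 had higher means in the YTHDF2 pull-down than in IgG. With the naming of the titles these differences were -0.11 for Ythdf1 and -0.0070 for Ythdf3 (adjusted p = 0.755 and 0.983), and those of Igf2bp2 and Igf2bp3 were 0.75 and 0.32. Ythdf1 was at 10.1, 12.2 and 9.47 CPM with YTHDF2, at 6.74, 7.73 and 4.75 CPM with IgG and at 4.63, 6.52 and 6.86 CPM in the input. The YTHDF2 libraries were all above the others, while IgG and input overlapped. Ythdf3 was at 47.2, 66.2 and 58.3 CPM with YTHDF2, at 36.2, 44.8 and 35.4 CPM with IgG and at 33.7, 47.7 and 34.4 CPM in the input. Here 1 YTHDF2 library lay inside the range of the input, and none inside that of IgG. Over IgG the log2 differences were 0.71 for Ythdf1 (SE 0.25, adjusted p = 0.0867) and 0.56 for Ythdf3 (SE 0.19, adjusted p = 0.082), so no reader was called, where 14.3% of all genes were called higher (2040, with 47 lower, or 1752 and 326 with median-ratio scaling). Both had an unadjusted p below 0.05, and DESeq2 and limma called 0 readers. Same-numbered libraries deviated together in this set, and the block fit called both, Ythdf1 at 0.71 (adjusted p = 0.00965) and Ythdf3 at 0.56 (adjusted p = 0.00154), each higher in 3 of 3 numbered pairs, in a fit that called 22.0% of all genes higher. Over input they were called at 0.82 (adjusted p = 0.0175) and 0.57 (adjusted p = 0.0302), and the Ythdf1 call was lost without replicate 1 of the input or replicate 2 of YTHDF2 (adjusted p = 0.0728 and 0.0668). The Ythdf3 call over input was lost in 4 of the 6 fits that left out 1 library (adjusted p 0.072 to 0.115) and with median-ratio scaling (0.39, adjusted p = 0.0972).

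Ythdc1 over input was called at 0.66 (SE 0.21, adjusted p = 0.0214), and this was lost in 4 of 6 such fits (adjusted p 0.0696 to 0.0805) and with median-ratio scaling (0.47, adjusted p = 0.0666). The IGF2BP genes went the other way. Igf2bp2 was at 3.34, 5.51 and 3.93 CPM with YTHDF2, at 3.95, 5.51 and 4.42 CPM with IgG and at 5.09, 8.36 and 10.1 CPM in the input. It was called lower with YTHDF2 than in the input (-0.87, SE 0.31, adjusted p = 0.0343), a call lost in 4 of 6 fits that left out 1 library (adjusted p 0.0861 to 0.129). Igf2bp3 differed from the input by -0.43 (SE 0.21, adjusted p = 0.121). The block fit called it (-0.46, adjusted p = 0.00596), in a fit that called 5549 of all 14255 genes higher and 3526 lower. With IgG against input the block fit also called both lower, Igf2bp2 at -0.71 (adjusted p = 0.00947) and Igf2bp3 at -0.33 (adjusted p = 0.0495). There it called 3958 genes higher and 3892 lower. Over IgG neither passed the test, at -0.12 and -0.11 (SE 0.31 and 0.22, adjusted p = 0.821 and 0.765). Igf2bp1 had 0 counts in all 9 libraries of this set, which allows up to 0.13 to 0.356 CPM per library at the limit of 3 counts.

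**Figure D5:**
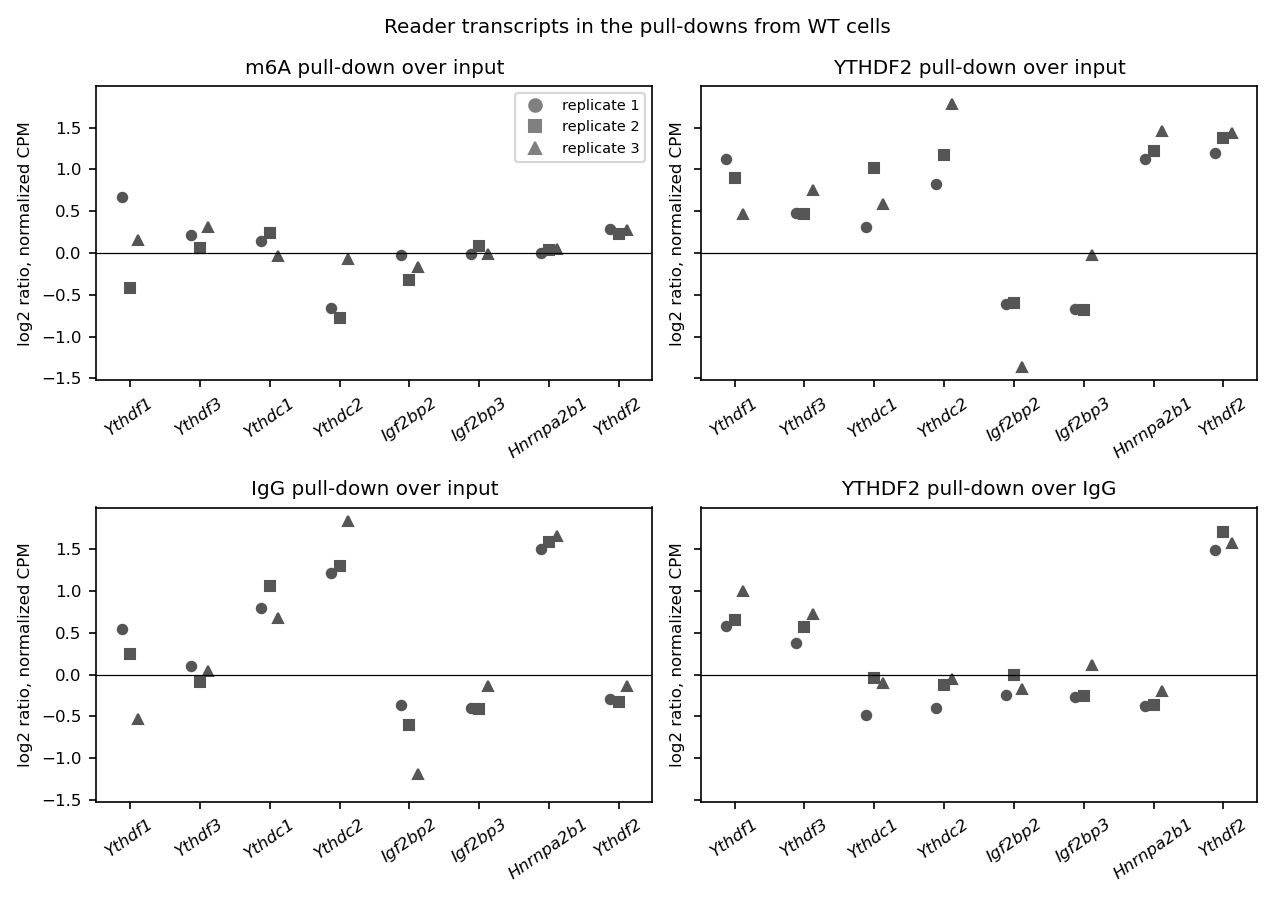
Log2 ratio of normalized CPM for each numbered pair of WT libraries in 4 panels: m6A over input, YTHDF2 over input, IgG over input and YTHDF2 over IgG, one point per pair with marker shape for the number. Ythdc1, Ythdc2 and Hnrnpa2b1 are above 0 over input with both antibodies and below 0 for YTHDF2 over IgG, where Ythdf1, Ythdf3 and Ythdf2 are above 0 in all 3 pairs.

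Other genes of the m6A pathway were read beside the readers. Over all genes at 0 h, 7.71% were called higher and 9.89% lower, and list counts are to be read against these shares. At 0 h, 0 of 8 tested m6A writers were called higher and 2 lower in cKO: Cbll1, the HAKAI subunit, at -1.04 (adjusted p = 0.0182) and Mettl3, the catalytic subunit, at -0.99 (adjusted p = 0.0208). Neither eraser (Fto and Alkbh5) was called. Of 10 other proposed m6A-sensitive binders, Fxr2 was called higher (0.99, adjusted p = 0.0365) and Rbmx lower (-1.54, adjusted p = 0.00298). Of 10 tested decay partners of the YTHDF proteins 2 were called lower, Cnot2 (-0.58, adjusted p = 0.0382) and Cnot1, the scaffold of CCR4-NOT that YTHDF2 binds (-1.12, adjusted p = 0.0416). The median log2 difference of the decay partners was -0.38, where that of all genes was -0.01. At 2 and 4 h, where 17.1% and 20.2% of all genes were called, no writer was, with Mettl3 at -0.53 and -0.33 (adjusted p = 0.168 and 0.388). Cnot2 was at -0.03 and 0.18 (adjusted p = 0.937 and 0.511). Cnot1 was at -0.89 and -0.59 (adjusted p = 0.0938 and 0.254). Rbmx was called lower at both times, and Fxr2 was called higher at 4 h only (adjusted p = 0.0498). Hnrnpc (-0.55, adjusted p = 0.0375) and Cnot7 (-0.55, adjusted p = 0.0273), not called at 0 h, were called lower at 2 h but not at 4 h.

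Partners of the other readers were examined in the same way at 0 h, against the same shares of all genes. Of 6 tested partners of YTHDC1 and YTHDC2, 2 were called lower: the splicing factor Srsf3 (-0.96, adjusted p = 0.0115) and the export receptor Nxf1 (-1.14, adjusted p = 0.0373). None of 3 IGF2BP co-factors was called. Of 8 tested fetal genes linked to IGF2BP and let-7, 2 were called higher, Igf2 (3.46, adjusted p = 0.0277) and Cd44 (1.17, adjusted p = 0.0134). Of 5 hnRNP genes related to Hnrnpa2b1, Hnrnpa0 was called higher (1.04, adjusted p = 0.0178). At 2 and 4 h, where 17.1% and 20.2% of all genes were called, Igf2 and Cd44 were again called higher. Srsf3, Nxf1 and Hnrnpa0 were not called at either time. Some genes were called only later. Cpsf6 (-0.85 and -0.83, adjusted p = 0.0407 each) and the IGF2BP co-factor Matr3 (-1.06 and -1.08, adjusted p = 0.0414 and 0.0344) were lower at both times. Srsf10 (-0.83, adjusted p = 0.0493) and Hnrnpa1 (-1.39, adjusted p = 0.0465) were lower and Hmga1 higher (2.25, adjusted p = 0.034) at 4 h. After 4 h in WT, where 24.2% of all genes were called lower and 15.6% higher, 6 of 8 writers fell, among them Zc3h13 (-1.68, adjusted p = 5.57e-06) and Cbll1 (-2.36, adjusted p = 6.78e-06), and their median of -1.54 was below that of the readers (-1.03) and of all genes (0.00). Of the decay partners 5 fell and 1 rose, with Cnot2 at -1.84 (adjusted p = 1.13e-06).

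The genes whose pattern over the 18 RNA-seq libraries was most like each reader were found by the correlation of log2 CPM among 6000 genes. These libraries share 2 genotypes and 3 times, so the values describe a joint pattern and no test is given. Ythdf1 was most like Phax (Pearson r = 0.969), Med7 (0.968) and Bag5 (0.96). Ythdc2 was most like Sgol2 (0.96), Cep57 and Camsap2 (0.959 each), and Hnrnpa2b1 most like Cbx5 (0.991), Pbk (0.986) and Mns1 (0.984). Igf2bp2 was most like Anxa3 (0.916), Pmp22 (0.913) and Dhx32 (0.877). Igf2bp3 had no close match, with Cav1 and Tcf12 first (0.732 each) and Dhx32 next (0.727). Ythdf3 was most like 1700066M21Rik (0.973), Sp3 (0.965) and Slc7a1 (0.96), and Ythdc1 most like Rbm7 (0.937), Zfp825 and Nlk (0.936 each). Igf2bp1, with few counts, was most like Lage3 (0.902), Ccndbp1 (0.881) and Ids (0.88). Among the readers themselves Ythdc1 and Ythdc2 were the most alike pair (0.895), followed by Ythdc1 with Ythdf3 (0.876). Ythdf1 and Igf2bp1 ran in opposite directions (-0.667), as did Igf2bp2 and Hnrnpa2b1 (-0.652).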

How the data were processed

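The authors deposited raw counts and TPM per gene symbol. Per the submitters' processing notes the tools included bcl2fastq 2.17.1.14, Trimmomatic 0.32 and STAR 2.5.2a with GRCm38. The counting tool, its strand setting and the annotation were not given in the sources used here. Per the labels' protocols, RNA-seq libraries were made by a SMART-seq2 method and both pull-down sets by a modified SMART-seq3 method. All 33 libraries were used. The deposited counts were tested with edgeR 4.0.16 (R 4.3.3): low-count filter at its defaults, TMM scaling, quasi-likelihood test, and Benjamini-Hochberg adjustment over all genes of a table, called at 0.05. All groups of a table entered 1 fit, including 18 RNA-seq libraries for the genotype and time comparisons. Normalized CPM uses the TMM scaling, and a log2 difference is the fitted one. The deposited TPM served for levels between genes and, as log2(TPM + 1), for limma 3.58.1. Other alternatives were DESeq2 1.42.0, other scalings, no filter, the compared libraries alone and leaving out each library.

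Same-numbered libraries deviated together, with correlations of 0.109 to 0.504 in the m6A set, 0.409 to 0.705 in the YTHDF2 set and 0.177 to 0.796 over times of 1 genotype, but -0.207 to 0.0768 across genotypes. A pairing by number was therefore taken as present except across genotypes. The reported tests nevertheless had no replicate block and leave this pairing out. Fits with the block were run as an alternative. No libraries were alike within counting noise. The readers, the gene lists and the rule for naming genes (the readers and Ythdf2 in full, up to 4 called genes with the smallest p per list, and the 3 most alike genes per reader) were set with earlier results of these data known. The fits were also run on simulated counts with known changes. Those counts held no replicate effect and no deviant library, so they do not cover the pairing described above.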

Additional observations from a re-analysis of the deposited data

How the results depend on the processing

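Each count of called readers and each log2 difference was recomputed under the listed alternatives. Of the recomputed counts of called readers, 245 stayed within 1.5 times of the reported count and 53 did not. Of the log2 differences, 1086 kept direction and side of the threshold, 53 lost the call, 51 gained it and 93 changed sign. The causes of these shifts were not tested, apart from the scalings and the exchanged naming, which move or turn the values by construction. Ythdf1 at 4 h and the falls of Ythdf1 and Ythdc2 under actinomycin D kept their calls in every alternative run. With the replicate number as a block, the readers called became 2 lower for cKO against WT at 0 h, 1 lower for cKO against WT at 2 h, 2 higher for WT 4 h against 0 h, 1 higher for cKO 4 h against 0 h, 1 higher for m6A against input, 1 lower for m6A against input, 2 lower for YTHDF2 against input, 2 higher for YTHDF2 against IgG and 2 lower for IgG against input. Across the genotypes the numbers were not taken as pairs, because same-numbered libraries deviated with correlations of only -0.207 to 0.0768. Igf2bp3 nevertheless ranked alike by number in both genotypes, and a shared origin by number was not tested. In the genotype comparisons the block called Ythdc2 (-0.90, adjusted p = 0.0248) and Hnrnpa2b1 (-0.88, adjusted p = 0.0381) lower at 0 h and Hnrnpa2b1 (-0.87, adjusted p = 0.0404) at 2 h. The block fit called 23.9% of all genes at 0 h and 22.7% at 2 h. Block values that changed other calls stand beside their results. With median-ratio (RLE) scaling, the readers called became 3 higher for YTHDF2 against input and 2 lower for YTHDF2 against input. It turned the sign of Ythdf3 (-0.015) in the slope difference and of Ythdf3 (-0.047) in IgG against input. With DESeq2, the readers called became 1 lower for cKO against WT at 0 h, 1 lower for m6A against input, 3 higher for YTHDF2 against input, 2 lower for YTHDF2 against input and 1 lower for IgG against input. That choice reversed the sign of Ythdf3 (-0.015) in the slope difference and of Ythdf3 (-0.047) in IgG against input. Scaled to library size, the readers called became 3 higher for m6A against input and 0 lower for YTHDF2 against input. It turned the sign of Igf2bp3 (0.050) in cKO against WT at 0 h, of Ythdf3 (0.17) in cKO against WT at 2 h, of Ythdc1 (0.14) in cKO against WT at 4 h and of Igf2bp2 (0.039) in m6A against input. Scaled to ribosomal protein genes, the readers called became 3 lower for cKO against WT at 0 h, 0 higher for cKO against WT at 2 h and 0 higher for WT 4 h against 0 h. That choice reversed the sign of Ythdf3 (-0.16) in cKO against WT at 0 h, of Ythdf3 (-0.12) in cKO against WT at 4 h, of Hnrnpa2b1 (-0.33) in WT 4 h against 0 h and of Hnrnpa2b1 (-0.18) in cKO 4 h against 0 h. With limma on log2(TPM + 1), the readers called became 2 lower for cKO against WT at 0 h, 1 higher for cKO against WT at 2 h, 0 higher for WT 4 h against 0 h, 3 higher for m6A against input and 0 lower for YTHDF2 against input. It turned the sign of Ythdf3 (-0.12) in cKO against WT at 0 h, of Hnrnpa2b1 (-0.12) in WT 4 h against 0 h, of Igf2bp2 (0.24) in m6A against input and of Igf2bp3 (0.032) and Ythdf2 (0.094) in IgG against input. When the 6 compared libraries were fitted alone, the readers called became 1 higher for cKO against WT at 2 h, 2 lower for cKO 4 h against 0 h, 2 higher for YTHDF2 against input and 2 lower for YTHDF2 against input. That choice reversed the sign of Igf2bp3 (0.030) in cKO against WT at 0 h and of Ythdf3 (0.00072) in cKO against WT at 2 h. Without the low-count filter, the sign turned of Ythdf3 (-0.0090) in the slope difference and of Ythdf3 (-0.012) in IgG against input. When the YTHDF2 and input libraries were named as in the titles, the readers called became 1 higher for YTHDF2 against input, 5 lower for YTHDF2 against input, 3 lower for YTHDF2 against IgG and 0 higher for IgG against input. It turned the sign of Ythdf1 (-0.82), Ythdf3 (-0.57), Ythdc1 (-0.66), Ythdc2 (-1.23), Igf2bp2 (0.87), Igf2bp3 (0.43), Hnrnpa2b1 (-1.27) and Ythdf2 (-1.34) in YTHDF2 against input, of Ythdf1 (-0.11), Ythdf3 (-0.0070), Igf2bp2 (0.75) and Igf2bp3 (0.32) in YTHDF2 against IgG and of Ythdf1 (-0.71), Ythdf3 (-0.56), Igf2bp2 (0.12) and Igf2bp3 (0.11) in IgG against input. With each library left out in turn, the readers called were 0 to 2 lower for cKO against WT at 0 h, 0 to 2 higher for cKO against WT at 2 h, 1 to 2 higher for cKO against WT at 4 h, 0 to 1 lower for cKO against WT at 4 h, 0 to 1 higher for WT 4 h against 0 h, 0 to 1 lower for m6A against input, 2 to 5 higher for YTHDF2 against input, 0 to 1 lower for YTHDF2 against input, 0 to 1 higher for YTHDF2 against IgG and 0 to 1 lower for IgG against input. In cKO against WT at 0 h they gave -0.00071 to 0.76 for Ythdf1, -0.41 to 0.24 for Ythdf3, -0.39 to 2.25 for Igf2bp1 and -0.43 to 0.43 for Igf2bp3. Such fits gave -0.12 to 0.089 for Ythdf3 and -0.11 to 0.75 for Igf2bp3 in cKO against WT at 2 h. In cKO against WT at 4 h they gave -0.13 to 0.17 for Ythdf3, -0.22 to 0.10 for Ythdc1 and -0.18 to 0.46 for Igf2bp3. Such fits gave -0.82 to 0.052 for Igf2bp2 in WT 4 h against 0 h. In cKO 4 h against 0 h they gave -0.67 to 0.41 for Igf2bp2 and -0.57 to 0.67 for Ythdf2. Such fits gave -0.067 to 0.12 for Ythdf3, -0.056 to 0.19 for Igf2bp2, -0.038 to 0.15 for Igf2bp3 and -0.090 to 0.11 for Hnrnpa2b1 in the slope difference. In m6A against input they gave -0.082 to 0.38 for Ythdf1 and -0.13 to 0.20 for Igf2bp3. Such fits gave -0.35 to 0.035 for Igf2bp2 and -0.35 to 0.066 for Igf2bp3 in YTHDF2 against IgG. In IgG against input they gave -0.052 to 0.26 for Ythdf1 and -0.11 to 0.18 for Ythdf3. Calls over all genes also moved by over 1.5 times: with a library left out they numbered 899 to 2846 for the genotypes at 0 h (2469 reported), 854 to 3746 at 2 h (2393) and 1246 to 3898 at 4 h (2827), and 1824 to 2775 for m6A (2881). The 6 libraries alone gave 1583, 1756 and 1447 calls at 2 h, at 4 h and for cKO over time (4222). The block gave 5373 for m6A, 4402 for YTHDF2 against IgG (2087) and 89 for the slope difference (1), for which DESeq2 gave 64, limma 27, library size scaling 11 and the other settings 0 to 6. For m6A, library size scaling gave 4920 and limma 8006. Counts per library limit Igf2bp1 (at most 16) and, less so, Igf2bp2.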
